A study of Rattus norvegicus with 6 samples.

Results

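The DNA replication and nucleotide synthesis genes are 46 rat genes that load and run the replication fork, supply its precursors and copy chromatin behind it. Their values are those of every probe set whose single annotated gene symbol is on the list. By that rule 43 of them were measured, of 14371 genes with a single symbol on the arrays. All 43 were on the RAE2.0 arrays, with 56 probe sets, and 19 of them were also on the U34A arrays, with 31. Cdc6, Gins2 and Rrm2 were not analysed here. RNA came from 3 populations of Wistar rat olfactory ensheathing cells in culture (OECs, glia that wrap olfactory axons), taken from the olfactory nerve layer of the olfactory bulbs. OEC Ep cells came from 21-day-old rats and were kept for 1 week, under 3 population doublings. OEC Lp cells came from rats of that age too and had passed 50 doublings. TEG3 is a single clonal line, derived after a culture from 60-day-old rats was given a plasmid for the SV40 large T antigen. The labels give over 90% purity for both primary cultures. All 3 are labelled as grown in M3 medium, a DMEM base containing 3% serum, bovine pituitary extract (20 µg/ml) and forskolin (2 µM), an activator of adenylyl cyclase. For each population RNA of 3 cultures was combined into each of 2 pools, and there was 1 array of each type. The labels do not say which pool went on which array.

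A replication origin is first licensed: the origin recognition complex (Orc genes), Cdc6 and Cdt1 load the Mcm2 to Mcm7 helicase onto DNA. Cdc45 and the GINS complex then activate the helicase, primase and polymerase alpha start each strand, and polymerases delta and epsilon extend it while held by the sliding clamp Pcna. Many of these genes are transcribed as cells pass from G1 into S phase under E2F factors, which the retinoblastoma protein restrains, and large T antigen is known to bind the retinoblastoma protein.

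The promoters of the measured genes were searched for E2F words, since many replication genes are transcribed under E2F factors. RefSeq promoter windows of the GRCr8 assembly, from 250 bases before to 50 after each gene's start, were found for 41 of the 43 measured genes, in 44 windows. Orc1 and Mcm4 have no entry. The words TTTCCCGC, TTTCGCGC, TTTGCCGC and TTTGGCGC, read on both strands, were present in 22 of the 44 windows (50.0%). Over all 33469 windows of that table the share was 2.14%, and over the 13392 windows of genes on either array type it was 3.49%. At least 2 matches were found in 20.5% of the members' windows and in 0.0837% of all windows, where matches that overlap on opposite strands count separately. Below are 60-base stretches before the start, read 5′ to 3′ on the gene's strand, with the matches in capitals. They show 5 helicase genes with a word before the start, the called gene Ung, both genes with the largest TEG3 ratios (Dtl and Cdca7), and Uhrf1, the gene that went the other way.
Mcm2: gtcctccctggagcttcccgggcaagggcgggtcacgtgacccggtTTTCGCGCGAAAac
Mcm5: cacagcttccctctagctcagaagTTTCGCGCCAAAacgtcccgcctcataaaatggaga
Mcm6: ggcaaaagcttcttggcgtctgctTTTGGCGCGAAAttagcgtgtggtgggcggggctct
Mcm7: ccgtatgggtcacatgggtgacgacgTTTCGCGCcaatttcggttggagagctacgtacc
Gins1: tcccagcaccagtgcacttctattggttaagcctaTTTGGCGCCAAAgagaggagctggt
Ung: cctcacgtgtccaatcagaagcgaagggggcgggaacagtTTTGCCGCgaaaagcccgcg
Dtl: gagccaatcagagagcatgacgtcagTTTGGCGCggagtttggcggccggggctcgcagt
Cdca7: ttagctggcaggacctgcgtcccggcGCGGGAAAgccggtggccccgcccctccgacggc
Uhrf1: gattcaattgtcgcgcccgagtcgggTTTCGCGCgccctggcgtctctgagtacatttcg

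In Mcm2, Mcm5, Mcm6 and Gins1 a word on each strand overlapped, so that the capitals run over 12 bases. On GRCr8 the stretches lie at chr4:122918095-122918154 (minus strand) for Mcm2, chr19:13488576-13488635 (plus) for Mcm5, chr13:42404456-42404515 (minus) for Mcm6 and chr12:22163197-22163256 (minus) for Mcm7. Those of Gins1 and Ung lie at chr3:160184860-160184919 (plus) and chr12:48154046-48154105 (minus). Those of Dtl, Cdca7 and Uhrf1 lie at chr13:105685932-105685991 (minus), chr3:77730232-77730291 (plus) and chr9:1223061-1223120 (plus). All lie upstream of the annotated start of their gene. Of the 6 genes called by the test described below, Ung, Mcm7 and Timeless had a word in the window, and Pola2, Prim1 and Pold1 had none. A match is a run of letters and not a measured binding site. On RAE2.0 the median log2 ratio of TEG3 to OEC Ep was 2.43 for the 22 genes with a word (from -1.18 to 3.76) and 2.00 for the 19 without one (from 0.35 to 2.61). The CCAAT box (CCAAT) was in 56.8% of the members' windows and 37.5% of all windows. The cell cycle homology region (TTTGAA or TTCGAA), a sequence of genes expressed late in the cycle, was in 20.5% and 19.7%. Over windows of genes on either array type the shares were 36.9% for the CCAAT box and 14.4% for the cell cycle homology region. Of the 3 motifs, the gap between the members and all windows was widest for the E2F words. These shares follow from the choice of genes and use no array signal. Whether the words bear on the signals in TEG3 was not tested.

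**Figure D1:**
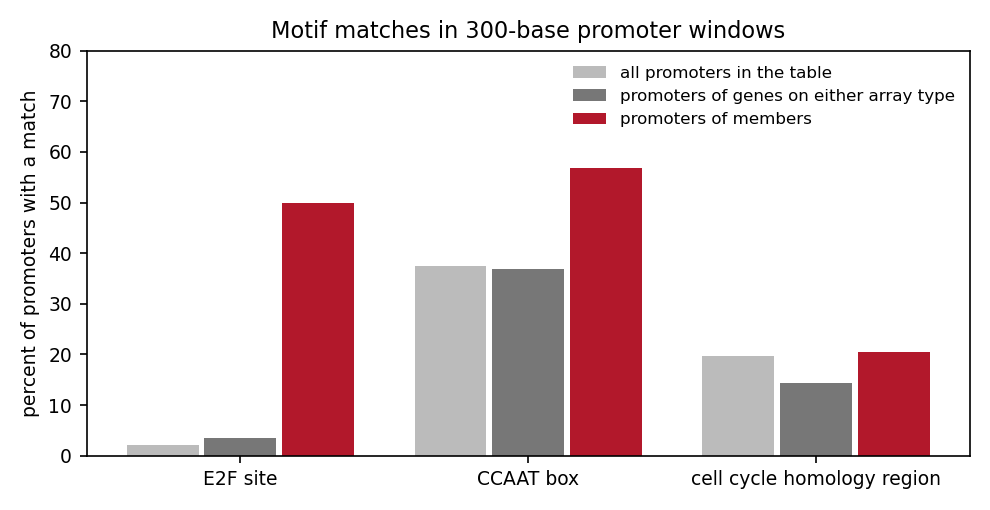
Percent of 300-base promoter windows with a match to each motif on either strand, for all windows of the RefSeq table (light grey), windows of genes on either array type (dark grey) and windows of the replication genes (red). E2F words were in 50.0% of the members' windows and 2.14% of all windows.

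Signals are on a linear scale, and values below a floor (the 40th percentile, 129 on U34A and 168 on RAE2.0) were set to it, so that ratios involving a floored signal are bounds, written "at least". Between 59.1 and 61.8% of probe sets were above the floor on each array. All 43 members passed this filter on at least 1 array of each type they were on, with 30 of 31 and 55 of 56 probe sets, and 24 and 51 probe sets were above the floor on all 3 arrays of the type. RNA quality was read from the GAPDH control probe sets, as 3′ over 5′ signal. This ratio on U34A was 1.96 for OEC Ep, 1.52 for OEC Lp and 1.54 for TEG3, and on RAE2.0 it ran from 0.981 to 1.02. Of 10 ensheathing and Schwann cell markers on RAE2.0, none was at the floor in OEC Ep. There 7 were at it in OEC Lp (among them Sox10, S100b and Ngfr) and 8 in TEG3 (among them S100b, Ngfr and Npy). Their summed signal was 102646 for OEC Ep, 2349 for OEC Lp and 2802 for TEG3. On U34A fewer were at the floor, 4 of 9 in OEC Lp and 2 of 9 in TEG3. Ngfr was above it there, with 12725 for OEC Ep, 2564 for OEC Lp and 3625 for TEG3. Of 14 microglia and macrophage markers on RAE2.0, 11 were at the floor in OEC Lp and 10 in TEG3, Aif1 and Cd68 in both. The summed signal of these 14 was 68266 for OEC Ep, 5224 for OEC Lp and 3285 for TEG3, and that of 12 fibroblast and meningeal markers 132414, 137559 and 38724. Of the 10 fibroblast markers on both types, limma called Col3a1 and Prrx1 higher and Postn and Thy1 lower in OEC Lp than in OEC Ep, and Postn and Thy1 lower in TEG3 than in OEC Ep; Prrx1, Postn and Thy1 are named after their values were seen. Markers of all 3 lists thus move with the comparisons against OEC Ep, and their part in the results below was not tested. In such bulk cultures, fewer cells of a type and less RNA per cell cannot be told apart, and more dividing cells and more RNA per dividing cell cannot either.

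TEG3 was compared with OEC Ep to see how the large T line differs from the short-term culture. Of the 19 genes on both array types, limma called 6 higher and 0 lower at an adjusted p under 0.05, where 0.671% of all 3130 genes were called higher and 3.77% lower. They were Mcm7, Pola2, Prim1, Pold1, Ung and Timeless, and none of the 4 clamp, loader and lagging strand genes tested was among them (lowest adjusted p = 0.057). These 6 made up 28.6% of all 21 higher calls. All 19 were higher in TEG3 on both array types, where 47.9% of all genes were higher on U34A and 56.0% on RAE2.0. Of these, Pola1 passed the filter on U34A only through its TEG3 array, so its direction there was fixed by the filter. On both types 15 were at least 2-fold higher, as were 3.93% of all genes. The median log2 fold of the 19 was 1.95, against 0.04 for all genes. The fit took the array type as a term, and a fold is the mean of the log2 ratios of both types.

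Timeless, part of the complex that protects paused forks, gave a U34A signal of 129 for OEC Ep (the floor), 291 for OEC Lp and 1021 for TEG3. On RAE2.0 the signals were 184, 331 and 1349. Both TEG3 arrays stood above all OEC Ep and OEC Lp arrays of their type. The gene rose at least 7.61-fold in TEG3 over OEC Ep (log2 fold 2.93 ± 0.30 SE, adjusted p = 0.0101). Mcm7, a subunit of the replicative helicase, had signals of 1146, 2996 and 8957 on U34A, against 3479, 4483 and 20097 on RAE2.0, in the same order. It rose 6.72-fold (log2 fold 2.75 ± 0.36, adjusted p = 0.0196), with OEC Lp between the others on both types. Ung, the glycosylase that removes uracil from DNA, had signals of 129 (the floor), 473 and 1092 on U34A, against 655, 2161 and 3664 on RAE2.0. The rise was at least 6.88-fold (log2 fold 2.78 ± 0.32, adjusted p = 0.0155), and on the log scale OEC Lp lay closer to TEG3 than to OEC Ep on both types. Pold1, the catalytic subunit of polymerase delta, had signals of 203, 598 and 2143 on U34A, against 383, 323 and 1941 on RAE2.0. It rose 7.31-fold (log2 fold 2.87 ± 0.48, adjusted p = 0.0377), while OEC Lp was above OEC Ep on U34A and below it on RAE2.0. Prim1, the catalytic subunit of primase, had signals of 705, 2111 and 4430 on U34A, against 4708, 5754 and 21422 on RAE2.0. It rose 5.35-fold (log2 fold 2.42 ± 0.40, adjusted p = 0.0376). Pola2, the B subunit of polymerase alpha, had 246, 417 and 925 on U34A and 277, 349 and 1524 on RAE2.0. It rose 4.55-fold (log2 fold 2.18 ± 0.36, adjusted p = 0.0363). For each of the 6, the lowest signal of a type was in a primary culture and the highest in TEG3.

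**Figure D2:**
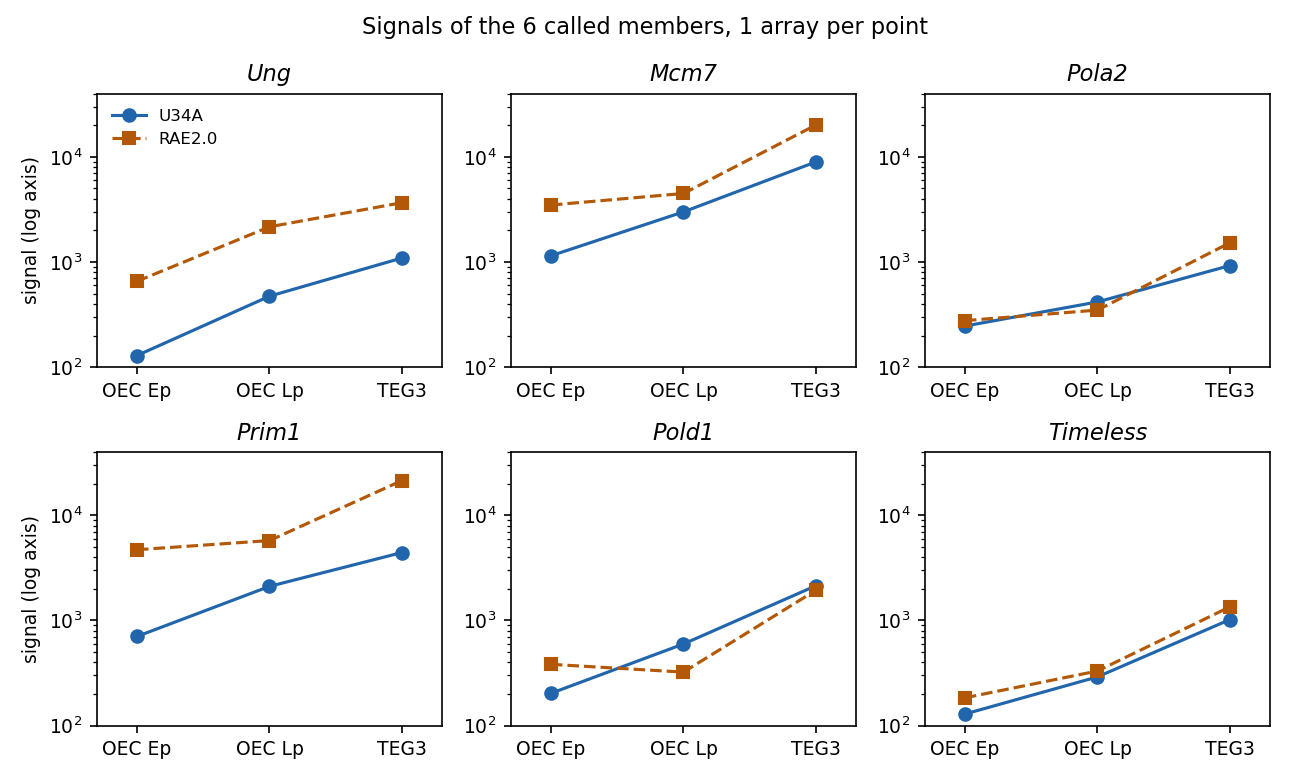
Signal (log axis) of the 6 called genes in OEC Ep, OEC Lp and TEG3, 1 array per point, on U34A (circles, solid lines) and RAE2.0 (squares, dashed lines); lines join arrays of a type and show no time course. TEG3 was highest on both types for each gene, and the U34A values of Ung and Timeless in OEC Ep are the floor.

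The other 13 genes on both types did not pass, although each was higher in TEG3 on both. The flap endonuclease Fen1 had a log2 fold of 1.95 ± 0.39 and thymidylate synthase, Tyms, 1.79 ± 0.36 (adjusted p = 0.057 for both). The clamp loader subunit Rfc4 had 1.79 ± 0.37 (adjusted p = 0.0596) and the maintenance methyltransferase Dnmt1 at least 1.66 ± 0.35 (adjusted p = 0.0667). Mcm5 and Mcm6, helicase subunits, had 2.35 ± 0.57 and 2.01 ± 0.51 (adjusted p = 0.0893 and 0.0975). Mcm5 thus had a larger fold than the called gene Pola2, with a larger standard error. The clamp Pcna had 1.38 ± 0.40 (adjusted p = 0.129): its U34A signals were 7391 for OEC Ep, 13305 for OEC Lp and 21926 for TEG3, and its RAE2.0 signals 15552, 11568 and 35528. The smallest folds of the 19 were those of Pold3, an accessory subunit of polymerase delta, with at least 0.90 ± 0.36 (adjusted p = 0.23) and U34A probe sets from -0.42 to at least 1.40, and Prim2, the large primase subunit, with 0.93 ± 0.52 (adjusted p = 0.362). For Prim2 the types differed, with a log2 ratio of 1.51 on U34A and 0.35 on RAE2.0. Of the remaining genes, Rpa2 had 1.86, Top2a at least 2.00, Pola1 at least 1.67 and Dut at least 1.49, with adjusted p-values from 0.114 to 0.126. Counted without adjustment, 17 of the 19 had p under 0.05. The share of all genes at that level is not given here, so this and later unadjusted counts have no background beside them. Fits that left out any 1 of the 6 arrays called no gene at all in this comparison. They therefore cannot tell whether the 6 calls hold. A fit to the arrays of TEG3 and OEC Ep alone called 0 of all genes, with 17 members at an unadjusted p under 0.05. Since the pools cannot be tied to arrays, p-values may measure technical spread only.

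On RAE2.0, with 1 array per population and no test, 40 of 43 genes were at least 2-fold higher in TEG3 than in OEC Ep and 1 was at least 2-fold lower, where 12.0% of all 11542 genes were higher by that size and 10.6% lower. The median log2 ratio of the 43 was 2.19 against 0.11 for all genes. Signal was highest in TEG3 for 42 of 43 members and for 38.6% of all genes.

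Among origin and helicase genes all 13 were at least 2-fold higher, from 2.16-fold to 8.95-fold, with a median log2 ratio of 2.53. Cdt1, which loads the helicase and is destroyed once S phase begins, gave 785 for OEC Ep, 1222 for OEC Lp and 7031 for TEG3. Mcm2 had 941, 1647 and 7018 in the same order, Mcm3 935, 1212 and 6531, and Mcm4 2843, 3916 and 12193. For Mcm2 to Mcm7 the RAE2.0 log2 ratios of TEG3 to OEC Ep ran from 2.10 (Mcm4) to 2.90 (Mcm2). The 3 of them on U34A ran from 1.64 (Mcm6) to 2.97 (Mcm7) there. Orc1, the origin subunit whose level varies over the cycle, was at the floor in OEC Ep (168), with 214 for OEC Lp and 1001 for TEG3, at least 5.95-fold higher than OEC Ep. Orc2, another origin subunit, had 1594, 1821 and 3435, the smallest ratio of this step. Orc6 had 617, 660 and 3572 and was 5.79-fold higher. The helicase activators Cdc45 and Gins1 were 6.09-fold and 4.55-fold higher, with signals of 544 and 570 in OEC Ep and 3314 and 2593 in TEG3. Mcm10, which also acts in helicase activation, had 369, 281 and 1389, but its probe sets differed, with log2 ratios of 1.12 and 2.70.

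Of 9 polymerase and primase genes, 8 were at least 2-fold higher, with a median log2 ratio of 2.19. Pold2, an accessory subunit of polymerase delta, had signals of 1045, 2100 and 6281. Pole, the catalytic subunit of polymerase epsilon, had 509, 465 and 2097, and its partner Pole2 had 861, 482 and 2006. Prim2 was the exception at 1411, 440 and 1801, which is 1.28-fold. Of 9 clamp, loader and lagging strand genes, 8 were at least 2-fold higher, with a median of 1.80. The clamp loader subunits were not alike: Rfc2, Rfc4 and Rfc5 were 5.45-fold, 4.99-fold and 4.72-fold higher, while Rfc3, with signals of 2681, 931 and 5032, was 1.88-fold higher. The single-strand binding protein subunits Rpa1 and Rpa2 were 3.04-fold and 3.48-fold higher. The ligase Lig1, which seals Okazaki fragments, was 3.67-fold higher and Fen1 3.15-fold.

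Of 5 nucleotide genes, 5 were at least 2-fold higher, with a median log2 ratio of 1.55. The 3 of them that were also on U34A had a median of 2.02 there, and differences between the steps were not tested. Thymidine kinase, Tk1, had signals of 857, 517 and 1779. The large subunit of ribonucleotide reductase, Rrm1, had 3641, 2912 and 8912, and Tyms 451, 836 and 1323. Dut, which removes dUTP, had 1011, 1626 and 4034, and its probe sets had log2 ratios of 1.47 and at least 2.53. Ung, counted with these genes, was the highest of them at 5.59-fold.

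Fork and chromatin genes held both ends of the range. Cdca7, a partner of the chromatin remodeller Hells, had signals of 195, 779 and 2644 and was 13.6-fold higher in TEG3 than in OEC Ep. Dtl, the substrate receptor that marks Cdt1 for destruction, had 804, 915 and 9606 and was 11.9-fold higher. Hells itself had 335, 645 and 2015. These genes differed in OEC Lp, where Cdca7 and Hells lay between the other populations and Dtl was near OEC Ep. Dnmt1 and Top2a, the topoisomerase that untangles sister chromosomes, were 4.08-fold and 2.83-fold higher. Uhrf1, which recruits Dnmt1 to newly copied DNA, ran the other way, at 842 for OEC Ep, 583 for OEC Lp and 371 for TEG3 (2.27-fold lower). It was the only member lower in TEG3, and it rests on 1 probe set. Of 55 probe sets on RAE2.0, 54 had their highest signal in TEG3, and of 30 on U34A, 28 did, that of Pola1 through the filter. Gene values are means of these probe sets, and 34 of the 43 genes have 1 on RAE2.0. The counts are thus not separate support, and no share of all probe sets is given.

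**Figure D3:**
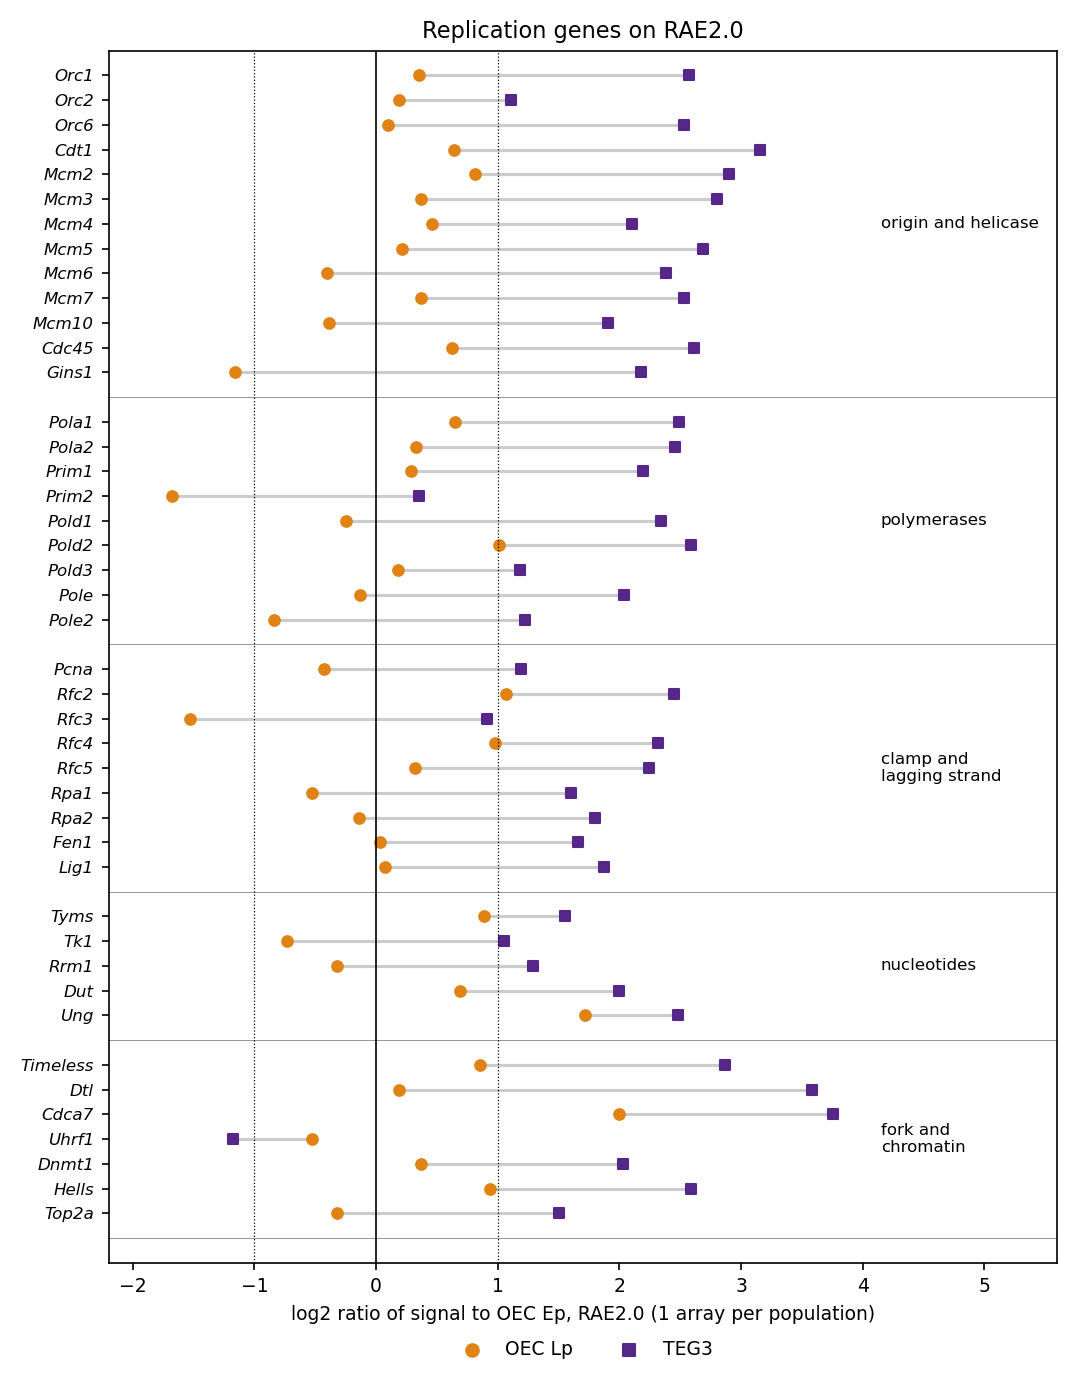
Log2 ratio of signal to OEC Ep on RAE2.0 for the 43 measured genes, by step of replication, in OEC Lp (orange circles) and TEG3 (purple squares), with 1 array per population; dotted lines mark 2-fold. In TEG3, 40 genes lie to the right of the upper 2-fold line and Uhrf1 alone lies below 0, while OEC Lp values lie on both sides of 0.

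TEG3 was compared with OEC Lp, since both had been adapted to long culture. This comparison shares the TEG3 arrays with the one above. No gene of 19 passed limma at an adjusted p under 0.05 (0 higher and 0 lower, with 0.192% and 1.05% of all genes), and 13 had an unadjusted p under 0.05. All 19 log2 folds were above 0, from 0.40 to 2.21, with a median of 1.29 against -0.01 for all genes. On U34A alone 17 of 19 were higher in TEG3 (45.9% of all genes were) and 7 at least 2-fold higher (8.06% of all genes), while Dut (-0.12) and Pold3 (-0.02) were lower. The 17 include Pola1, whose direction on U34A was fixed by the filter. Timeless had the lowest adjusted p (log2 fold 1.92 ± 0.30, adjusted p = 0.0562), then Mcm7 (1.87 ± 0.36, adjusted p = 0.081), Pola2 (1.64 ± 0.36) and Pold1 (2.21 ± 0.48, adjusted p = 0.109 for both). The smallest were Tyms with 0.40 ± 0.36, Pold3 with 0.48 ± 0.36 and Dut with 0.60 ± 0.42 (adjusted p = 0.668, 0.605 and 0.583). The array types differed in size: the median over the 19 came to 0.84 on U34A against 1.84 on RAE2.0, and the RAE2.0 ratio was the larger for 18 of 19. Mcm6 is an example, with log2 ratios of 0.84 on U34A and 2.78 on RAE2.0. The median over the 19 was 1.97 without the OEC Lp array of U34A and 0.88 without that of RAE2.0. On RAE2.0, 38 of 43 genes were at least 2-fold higher in TEG3 and 0 were lower by that size, where the shares of all genes were 9.61% and 8.69%. Dtl had the highest ratio, 10.5-fold, and Gins1 the next, 10.1-fold. The 5 genes within 2-fold were Orc2, Pold3, Tyms, Ung and Uhrf1.

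The primary cultures were compared with each other to see what more than 50 doublings changed, again with the OEC Ep arrays used above. Ung rose in OEC Lp (log2 fold 1.80 ± 0.32, at least 3.48-fold, adjusted p = 0.0339), with log2 ratios of 1.87 on U34A and 1.72 on RAE2.0. It was 1 of 19 genes called higher, where 2.11% of all genes were, and 0 were called lower (4.03% of all genes). Without an OEC Ep or OEC Lp array no gene at all was called, so those fits cannot tell whether the call holds. It was also lost without either TEG3 array, while other genes were still called. Tyms had a log2 fold of 1.39 ± 0.36 (adjusted p = 0.0997): U34A signals were 161 for OEC Ep and 594 for OEC Lp, and RAE2.0 signals 451 and 836. Timeless had at least 1.01 ± 0.30 (adjusted p = 0.137) and Mcm7 0.88 ± 0.36 (adjusted p = 0.268), and 3 of 19 genes had an unadjusted p under 0.05. The lowest was Prim2, -0.67 ± 0.52 (adjusted p = 0.547).

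For the rest of the list the answer depended on the array type. On U34A 18 of 19 genes were higher in OEC Lp (49.2% of all genes were), and Pola1 was at the floor in both. There 11 of 19 were at least 2-fold higher, where 10.9% of all genes on U34A were, and the median log2 ratio was 1.17 against 0.05 for all genes on both types. On RAE2.0 the same 19 genes had a median of 0.29, and 6 of them were lower in OEC Lp. The U34A ratio was the larger for 17 of 19. Top2a went from 624 (OEC Ep) to 2300 (OEC Lp) on U34A, but from 2719 to 2174 on RAE2.0. Rpa2 had 636 and 2139 on U34A and 1215 and 1105 on RAE2.0. Both genes were thus more than 3-fold higher on one type and slightly lower on the other. The log2 ratios of the 19 on U34A and on RAE2.0 had a Pearson r of 0.239 in this comparison and 0.379 in TEG3 against OEC Ep, across genes that share the same arrays. The median log2 fold over the 19 was 0.78 with all arrays, 0.51 without the OEC Ep array of U34A and 1.11 without that of RAE2.0. It was 0.18 without the OEC Lp array of U34A and 1.14 without that of RAE2.0. The GAPDH ratio of the OEC Ep array of U34A, given above, moves with this difference between the types, and its part in it was not tested.

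**Figure D4:**
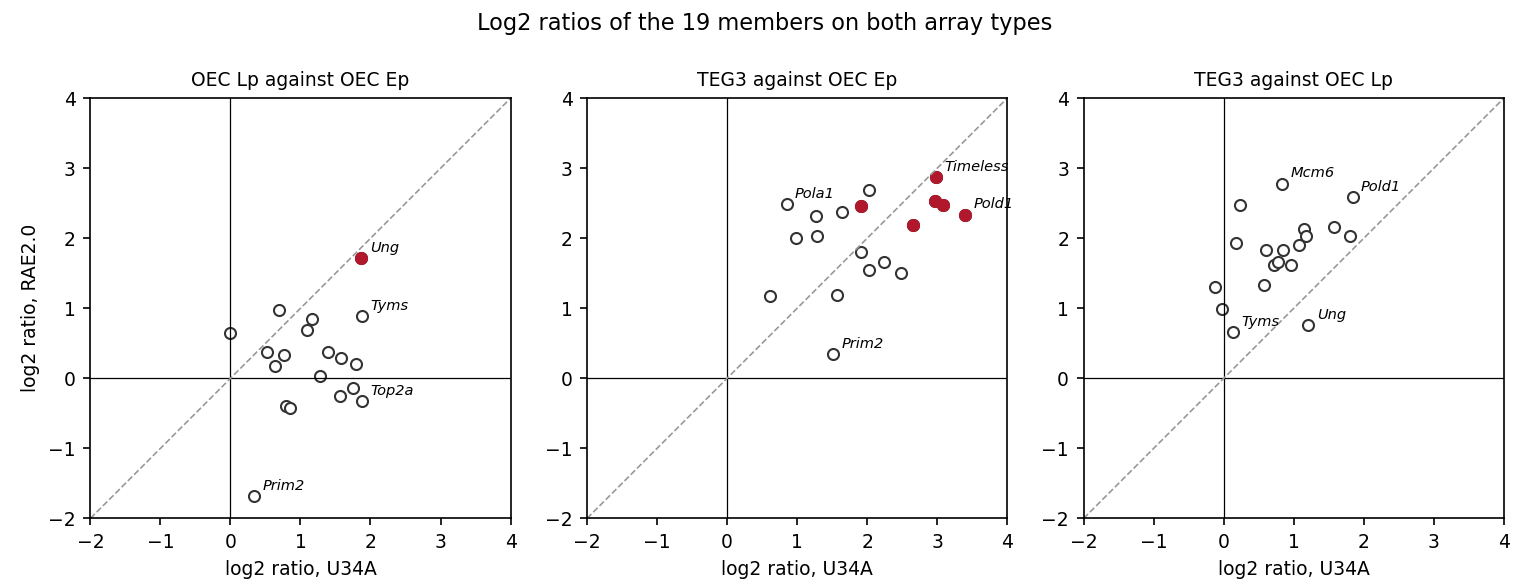
Log2 ratio on RAE2.0 against that on U34A for the 19 genes on both types in the 3 comparisons, 1 point per gene; the dashed line marks equal ratios and red points are called by limma. In OEC Lp against OEC Ep 17 of 19 points lie below the line, and in TEG3 against OEC Lp 18 of 19 lie above it.

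On RAE2.0 OEC Lp differed little from OEC Ep over the 43 genes. At least 2-fold higher were 4 (10.4% of all genes) and at least 2-fold lower 3 (10.4% of all genes), which is near the background in both directions. The 4 were Cdca7 (3.99-fold), Ung (3.30-fold), Rfc2 (2.09-fold) and Pold2 (2.01-fold). The 3 were Prim2 (3.21-fold), Rfc3 (2.88-fold) and Gins1 (2.23-fold). Each of these 3 was higher in TEG3 than in either primary culture. Over the 43 the median log2 ratio was 0.21 against 0.09 for all genes, and 28 were higher in OEC Lp (55.4% of all genes) and 15 lower. The order OEC Ep, OEC Lp, TEG3 from low to high held for 28 of 43 on RAE2.0 and for 16 of 19 on U34A, where 21.3% and 16.5% of all genes had it. Another 14 on RAE2.0 had OEC Lp lowest and TEG3 highest, as did 1624 of all 11542 genes.

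Other genes of the pathway were counted from lists written with earlier results known. Of 38 further replication factors, 8 were on both types and 0 passed in TEG3 against OEC Ep (limma), with 5 at an unadjusted p under 0.05 and a median log2 fold of 1.32. Of all genes tested, 0.671% were called higher there and 3.77% lower. Rfc1, the large clamp loader subunit, had at least 1.47 ± 0.29 (adjusted p = 0.057), and Rnaseh2a, which removes ribonucleotides from DNA, 2.14 ± 0.47 (adjusted p = 0.0733). On RAE2.0, 21 of 33 were at least 2-fold higher in TEG3 than in OEC Ep and 1 was lower by that size. Of all genes on RAE2.0, 12.0% were higher by that size and 10.6% lower. The lower gene was Pold4, a small subunit of polymerase delta, at 1663 for OEC Ep, 2141 for OEC Lp and 526 for TEG3. Pold4 was picked after its values were seen. Of 36 further nucleotide synthesis enzymes, 14 were on both types and 0 passed (4 at an unadjusted p under 0.05), with a median of 0.67. Ppat, the first enzyme of purine synthesis, had at least 1.30 ± 0.29 (adjusted p = 0.0773) and Cad, which starts pyrimidine synthesis, at least 1.20 ± 0.30 (adjusted p = 0.0975). On U34A both genes were at the floor in OEC Ep and OEC Lp and passed the filter only through TEG3. Their direction on U34A was thus fixed by the filter. On RAE2.0, 12 of 31 were at least 2-fold higher and 0 lower, beside the same 12.0% and 10.6% of all genes. Neither list had a gene past limma's threshold in the remaining comparisons. At an unadjusted p under 0.05 there were 0 replication factors and 1 nucleotide enzyme for OEC Lp over OEC Ep, and 4 and 4 for TEG3 over OEC Lp.

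**Figure D5:**
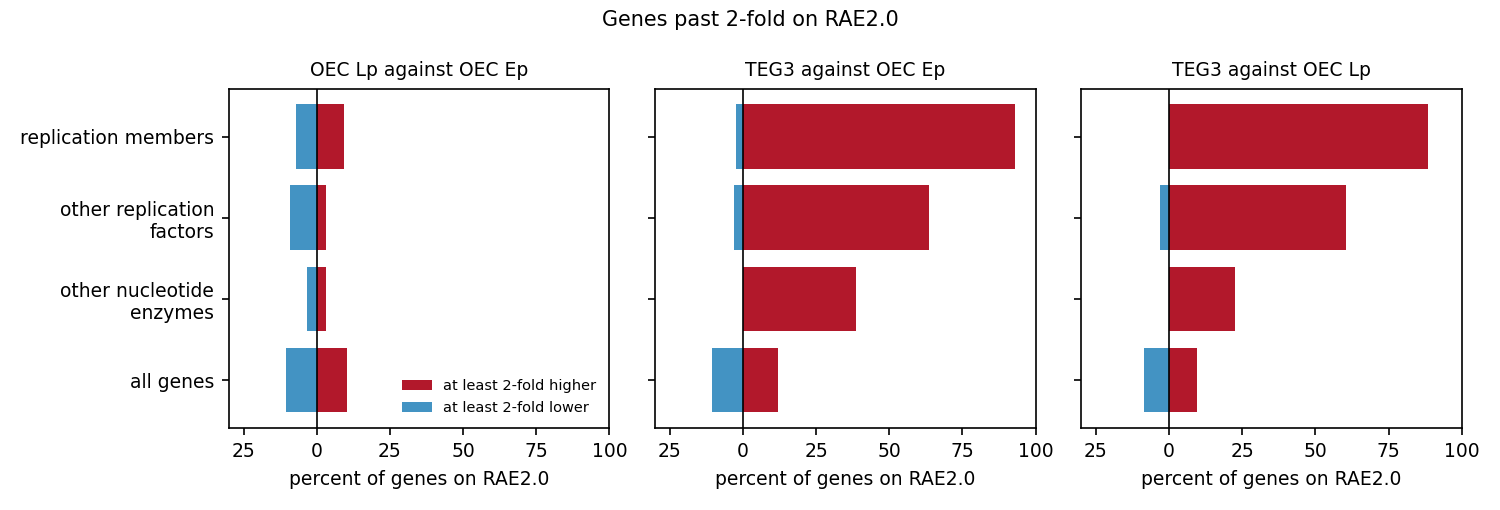
Percent of genes at least 2-fold higher (red, to the right) or lower (blue, to the left) on RAE2.0 in the 3 comparisons, for the 43 replication genes, 33 other replication factors, 31 other nucleotide enzymes and all 11542 genes. In TEG3 against OEC Ep 40 of 43, 21 of 33 and 12 of 31 were higher, and in OEC Lp against OEC Ep 4 of 43, 1 of 33 and 1 of 31. Of all genes, 12.0% were higher in TEG3 against OEC Ep and 10.4% in OEC Lp against OEC Ep.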

How the data were processed

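Total RNA of 3 populations was hybridised to 3 U34A and 3 RAE2.0 Affymetrix arrays. The authors deposited linear signal intensities, which came from MAS5 per the submitters' processing notes. The design text names Microarray Suite version 5.0, RNA pools of 3 cultures and a filter on probe sets whose setting is not given in the sources used here. Each array was scaled to one 2% trimmed mean within its type, values under the 40th percentile of the type were set to it, and probe sets had to exceed it on at least 1 array. Log2 signals of probe sets with a single symbol were averaged per gene. For 3130 genes measured on both types, limma 3.58.1 (R 4.3.3) fitted terms for population and array type, which serves as the replicate block because the probe sets of the types differ. That leaves 2 residual degrees of freedom and 3.61 prior ones. P-values were adjusted by Benjamini-Hochberg over all 3130 genes. All members were named; of other lists, up to 4 called genes per comparison, or the 2 with the lowest p. Members and lists were chosen with earlier results of these data known. Alternatives were floors, filters, scaling, probe set choice, block, subsets and left-out arrays.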

Additional observations from a re-analysis of the deposited data

How the results depend on the processing

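Replication genes called in TEG3 against OEC Ep numbered 6, and 4 to 8 with a floor at the 20th percentile, probe sets above the floor on all arrays, quantile or no scaling, the brightest probe set or a trended robust prior. They fell to 0 with no floor (18 at an unadjusted p under 0.05), no filter on dim probe sets (9), no replicate block of array type (6) or only the 4 arrays compared (17). With any array left out no gene at all was called in this comparison, so no member could be. The cause was not tested, except that fewer arrays leave fewer degrees of freedom. The 1 call in OEC Lp against OEC Ep, Ung, was lost under these 4 settings, with the lower floor, and with any array left out. Without an OEC Ep or OEC Lp array no gene at all was called there. With probe sets above the floor on all arrays, Ung and Timeless were not tested. The only U34A probe set of each was at the floor in OEC Ep. The calls in TEG3 against OEC Ep under that setting thus include neither gene. The median log2 fold in TEG3 against OEC Ep was 1.95, 2.18 with no floor and 1.62 to 2.27 with an array left out. With a threshold of 1.5-fold, 18 genes (13 higher, 5 lower) were past it on RAE2.0 in OEC Lp against OEC Ep, against 7 at 2-fold. The share of all genes past 1.5-fold is not given here. No call changed sign, and the 0 calls in TEG3 against OEC Lp stayed 0. Over all genes, 192, 139 and 39 were called (OEC Lp over OEC Ep, TEG3 over OEC Ep, TEG3 over OEC Lp). With no floor they were 66, 11 and 0, with no filter 1, 1 and 0, with no replicate block 0, 0 and 0, and with the 4 arrays 38, 0 and 0. The lower floor gave 124, 102 and 4, and probe sets above the floor on all arrays 77, 84 and 40. Genes near the floor, such as Pola1 on U34A, have ratios that its height limits.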

Other observations

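Cell cycle regulators that are not on the replication list did not all follow it, though most did in TEG3 on RAE2.0. There 16 of 18 were higher than in OEC Ep (56.0% of all genes), and 10 were at least 2-fold higher (12.0% of all genes). The other 2, Cdkn1a and Ccnd1, were at least 2-fold lower (10.6% of all genes). Of 19 such genes, 9 were on both types and 0 passed limma in any comparison (at an unadjusted p under 0.05 there were 2 for OEC Lp over OEC Ep, 6 for TEG3 over OEC Ep and 3 for TEG3 over OEC Lp). Ccne1, the cyclin E1 that drives entry into S phase, had log2 folds of 1.17 ± 0.37 in OEC Lp and 1.64 ± 0.37 in TEG3 over OEC Ep (adjusted p = 0.167 and 0.0785). Cdk2, its kinase partner, had at least 1.35 ± 0.31 in TEG3 over OEC Lp (adjusted p = 0.125). On U34A Cdk2 was at the floor in both primary cultures, so its direction there was fixed by the filter. In the other direction, Cdkn1a, the p21 inhibitor, had -1.51 ± 0.31 in OEC Lp and -1.41 ± 0.31 in TEG3 against OEC Ep (adjusted p = 0.052 and 0.0725), both lower bounds in size. Inhibitors did not all fall: Cdkn2a had RAE2.0 signals of 528 for OEC Ep, 5948 for OEC Lp and 9253 for TEG3. Cdkn2a, named after its values were seen, is among the 16 higher genes, as are Rb1, Rbl1 and Rbl2 of the retinoblastoma family. Ccnd1, the cyclin D1 that acts upstream of the retinoblastoma protein, had -2.51 ± 0.74 in TEG3 against OEC Lp (adjusted p = 0.205), also a lower bound, and the array types differed. Its RAE2.0 signals were 2577 for OEC Ep, 5384 for OEC Lp and 310 for TEG3, and its U34A signals 914, 693 and 370, so that OEC Lp was above OEC Ep on RAE2.0 and below it on U34A.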
